A study of Rattus norvegicus with 11 samples.

Results

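The genes described here encode the subunits of the proteasome and the proteins that activate or assemble it. Their transcripts were measured in medial prefrontal cortex from rats with a history of heroin self-administration and from yoked saline rats. The members were chosen by name alone, as the array probes whose gene name starts with Psma, Psmb, Psmc, Psmd, Psme, Psmf or Psmg. These were 50 of the 41012 non-control probes, for 42 genes. The heroin group held 6 rats and the saline group 5, all male, 4 months old and left abstinent for 14 days, with 1 array per rat. Heroin rats had licked a spout to obtain the drug intravenously, whereas saline rats received passive infusions timed by the heroin rats. Both groups then had an extinction session, without drug, directly before the tissue was taken, so all values describe cortex after that session. The tissue was a block of cortex and not a sorted cell type, and in such bulk samples fewer cells of a type and less RNA per cell cannot be told apart.

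The proteasome is the protease that degrades ubiquitin-tagged proteins in the cytosol and nucleus. Its barrel-shaped core is built of rings of alpha subunits, which gate the entry, and rings of beta subunits, of which Psmb5, Psmb6 and Psmb7 carry the active sites. A regulatory particle on the barrel's end recognises ubiquitin chains, removes them and unfolds the protein with a ring of ATPases, the Psmc proteins. Interferon replaces the catalytic subunits by Psmb8, Psmb9 and Psmb10, which form the immunoproteasome, and raises Psme1 and Psme2, which form an alternative cap. In neurons, degradation by the proteasome takes part in the turnover of synaptic proteins and in lasting synaptic change.

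Of the 42 genes, 18 belong to the core (8 of the alpha rings, 7 constitutive beta subunits and 3 immunoproteasome subunits) and 16 to the regulatory particle (6 ATPases, 3 other base subunits and 7 lid subunits). Another 4 were activators, Psme1 to Psme4, and 3 were assembly chaperones, Psmd5, Psmd9 and Psmd10, which help to build the regulatory particle. Psmc3ip carries a matching name but is not a proteasome subunit, and it was kept out of both classes. Psmd14, Psmf1 and Psmg1 were not analysed here. All 50 probes were scored well above background on all 11 arrays, and none was saturated on any. Where a gene had several probes, its brightest probe is described, unless stated otherwise.

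The probes below measured members that departed from the others, upward for Psma2 and Psmc6 and downward for Psmb8, Psmb9, Psme1 and Psme2. Psmb5 is added as the constitutive counterpart of Psmb8. Psme3, which also departed upward, is described further below without its probe. The sequences are the array's own oligonucleotides, written 5′ to 3′, whole (60 bases) except for Psmc6, of which the first 30 bases of each probe are shown.
Psma2: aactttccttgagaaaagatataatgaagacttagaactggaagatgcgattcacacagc
Psmc6, brighter probe: ttcgtatttgctttgtgagcattttgtaca
Psmc6, dimmer probe: ccaagaagctagagtccaaactggactata
Psmb5: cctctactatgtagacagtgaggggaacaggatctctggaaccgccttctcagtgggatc
Psmb8: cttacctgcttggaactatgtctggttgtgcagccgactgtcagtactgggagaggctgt
Psmb9: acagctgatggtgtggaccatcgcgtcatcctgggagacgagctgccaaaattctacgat
Psme1: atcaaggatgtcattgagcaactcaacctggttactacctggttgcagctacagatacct
Psme2: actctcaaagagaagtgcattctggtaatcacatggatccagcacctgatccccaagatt

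In genome build rn3, as the array files give it, the Psma2 probe lies at chr17:58739502-58740853 on the minus strand. Its span exceeds the probe's own length, since the probe joins separate stretches of the genome. The Psmc6 probes lie at chr15:21238398-21238457 and chr15:21238124-21238183, both on the plus strand, and do not overlap. The probe of Psmb8 lies at chr20:4788207-4788266 and that of Psmb9 at chr20:4806568-4806627, on opposite strands and 18.3 kb apart. Those of Psme1 (chr15:33730266-33730552) and Psme2 (chr15:33739894-33740973) also lie on opposite strands, 9.34 kb apart. The Psmb5 probe lies at chr15:32705834-32705893 on the minus strand.

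Signals are given in array medians, that is, as the spot intensity divided by the 50th percentile of all non-control probes on that array. Array medians before scaling ran from 42.7, on heroin replicate 6, to 78.3 in the heroin group and from 58.0 to 83.2 in the saline group. Between 28185 and 33209 probes were detected on a heroin array and between 30098 and 33835 on a saline array. With this scaling the median of all 25555 probes tested was 0.18 higher in heroin rats on the log2 scale, and after quantile normalization, which gives all arrays the same distribution, it was 0.01 higher. A log2 change is therefore given with its value after quantile normalization, and whether a member lies above or below the other probes is read against these medians. Of the 6 scans in the file headers, 5 held a saline and a heroin array, always with the saline array at position 3 and the heroin array at position 4, so array position and group cannot be told apart. The neuronal markers fixed for the tissue (Snap25, Syn1, Eno2, Slc17a7, Camk2a and Gad1) were detected on all 11 arrays, and of the 4 striatal markers Drd1a, Adora2a and Ppp1r1b were detected on all 11 and Drd2 on 8.

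The proteasome genes did not differ beyond the study's thresholds between heroin and saline rats, and the small positive change that nearly all of them had was close to that of the median probe on the arrays. With limma, 0 of the 50 probes passed both thresholds of the study, p under 0.02 before adjustment together with 1.4-fold or more, against 2.72% of all probes tested. The methods' t-test also put 0 of 50 past both, against 1.21% of all probes. The log2 change was above 0 for 49 of the 50 probes, against 78.7% of all probes, but after quantile normalization for only 22, against 51.7%. An unadjusted limma p under 0.02 was reached by 4 of 50 probes, against 7.29% of all probes. One under 0.05 was reached by 11 of 50, all higher in heroin rats, where 15.7% of all probes were higher at that level and 2.83% lower. These were the probes of Psma2, Psmc6 (both), Psmc4 (both), Psmd1, Psmd3, Psmd5 and Psmd8 and the dimmer probes of Psma6 and Psmd2. The methods' t-test gave 19 of 50 at that level, against 16.2% of all probes. After quantile normalization limma gave 0 of 50, against 7.7%, and the smallest p of any member was 0.112, or 0.706 after Benjamini-Hochberg adjustment. With the main scaling the smallest adjusted p was 0.263, which was also the smallest of all probes tested.

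Most members changed by similar amounts. After quantile normalization the change of 35 of the 42 genes lay between -0.1 and 0.1 on the log2 scale. The 7 genes outside that range were Psma2, Psmc6 and Psme3 above it and Psmb8, Psmb9, Psme1 and Psme2 below it. The share of all probes within that range was not taken, so this count does not set the members apart from other genes. The residual standard deviation between rats of a group was a median of 0.177 on the log2 scale over the 50 probes, against 0.269 over all probes tested, and after quantile normalization 0.149 against 0.242.

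**Figure D1:**
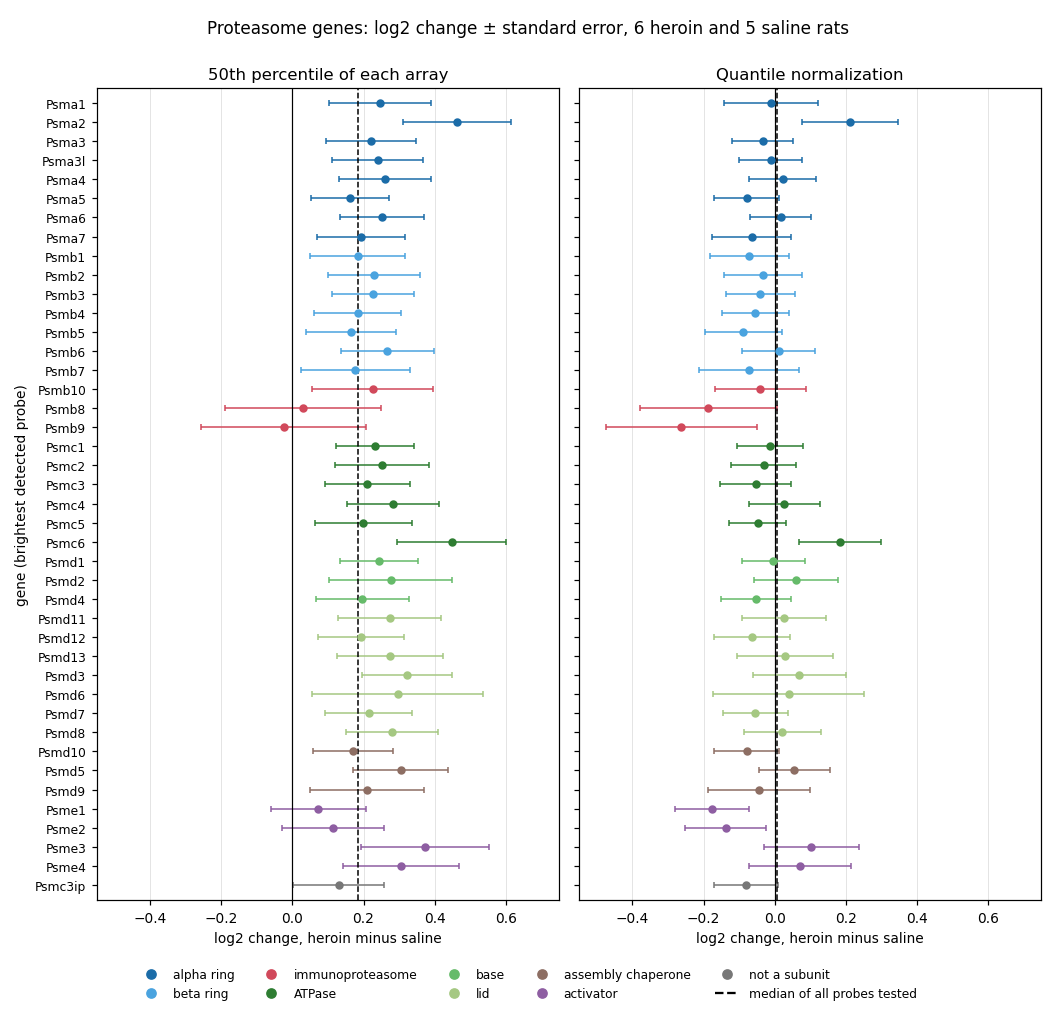
Log2 change between heroin and saline rats (horizontal axis, heroin minus saline, bars are the standard error) for the brightest probe of each of the 42 genes, coloured by class, with each array scaled to its 50th percentile (left) and after quantile normalization (right). The dashed line is the median of all 25555 probes tested, 0.18 on the left and 0.01 on the right. Most genes sit close to it under both scalings. On the right, Psma2, Psmc6 and Psme3 lie furthest above it, and Psmb8, Psmb9, Psme1 and Psme2 furthest below it.

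The comparison of core with regulatory subunits asked whether the protease barrel and its cap moved differently. The median log2 change was 0.22 over the 18 core genes and 0.26 over the 16 regulatory genes. Relative to the median of all probes these were 0.04 and 0.08, so the core lay 0.04 below the regulatory particle. After quantile normalization the medians were -0.04 for the core and 0.01 for the regulatory genes. With the main scaling all 16 regulatory genes lay above the all-probe median, as did 11 of the 18 core genes, but after quantile normalization 8 of 16 and 4 of 18 did. Those of the core below it with the main scaling were constitutive beta subunits (4 of 7), immunoproteasome subunits (2 of 3) and Psma5. Of the beta subunits, Psmb1 and Psmb4 were at -0.0004 relative to it and Psmb7 at -0.007. Their standard errors were 0.13, 0.12 and 0.15, so these lay at the median rather than clearly below it. The unadjusted limma p was under 0.05 for 8 of 22 regulatory probes and 2 of 19 core probes, which reads against 15.7% of all probes higher at that level. Under quantile normalization it was so for 0 of either, against 7.7% of all probes. Neither class is a set of independent genes, since all were read on the same arrays.

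Taken rat by rat, the difference between the classes was smaller than its spread. The mean log2 signal of the core minus that of the regulatory genes with a usable spot on every array (18 and 15 genes) was -0.06 ± 0.04 (SD, n = 5) in saline rats and -0.13 ± 0.11 (SD, n = 6) in heroin rats. Its lowest values were in heroin replicate 5 (-0.30) and heroin replicate 1 (-0.19). The other 4 heroin rats lay between -0.13 and -0.01, against -0.11 to -0.01 in saline rats. The groups overlapped. These differences hardly depend on the scaling, with -0.07 ± 0.04 (SD, n = 5) and -0.12 ± 0.11 (SD, n = 6) after quantile normalization. Heroin replicates 5 and 1 were also the lowest heroin rats for the immunoproteasome genes. Those genes are part of the core mean, so this match is in part built in. Without them the core and regulatory means (main scaling) were 6.17 and 5.91 in heroin replicate 1, and 6.12 and 5.88 in heroin replicate 6. Heroin replicate 1 was then not the next lowest after heroin replicate 5, so the account of single rats above holds only with these genes. Heroin minus saline was 0.23 for the constitutive core and 0.27 for the regulatory genes.

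**Figure D2:**
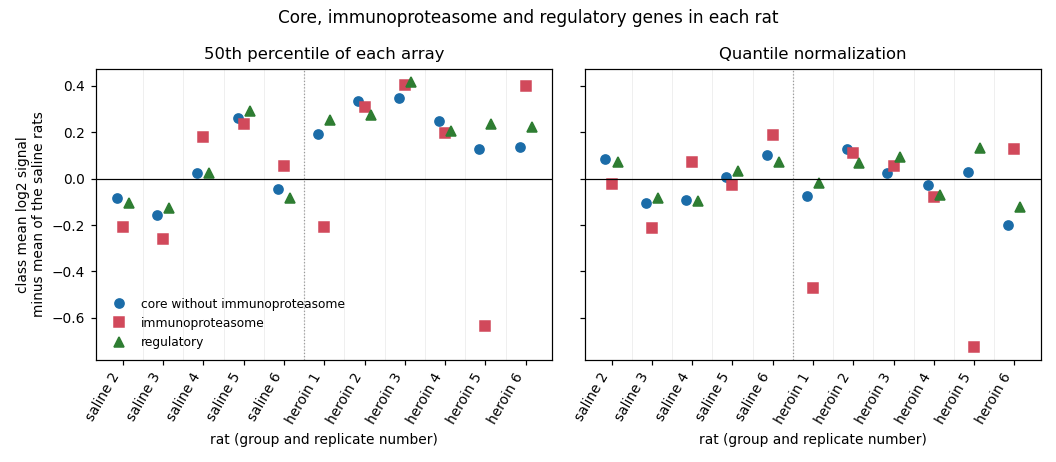
Mean log2 signal of the constitutive core genes, the immunoproteasome genes and the regulatory genes in each rat (horizontal axis, group and replicate number), less the mean of the 5 saline rats, with each array scaled to its 50th percentile (left) and after quantile normalization (right). Core and regulatory points move together from rat to rat; the immunoproteasome points of heroin replicates 1 and 5 fall far below them.

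The alpha rings gate the core and carry no active site. Psma2 had the largest change of all members. Its signal in saline rats was 14.1, 15.3, 17.9, 21.7 and 19.8 array medians in replicates 2 to 6, and in heroin rats it ran from 19.3 to 27.7, the middle rats being at 25.5 and 26.5. The groups overlapped, with heroin replicates 1 and 6 at the level of saline replicates 5 and 6 and the other 4 heroin rats above all saline rats. Its log2 change was 0.46 (limma standard error 0.15), a 1.38-fold change that stayed below 1.4-fold (two-sided exact permutation p = 0.0195, limma adjusted p = 0.263). After quantile normalization it was 0.21 (exact p = 0.156). Exact p-values here and below are two-sided permutation values and unadjusted. With the scan as a block the change was 0.53 (standard error 0.18) and past both thresholds, where 3.15% of all probes were. It was past them as well with heroin replicate 1, heroin replicate 6, saline replicate 5 or saline replicate 6 left out, where 2.47%, 3.13%, 9.21% and 2.07% of all probes were.

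Psma4 and Psma5 are alpha subunits among the 3 highest and the 3 lowest changes of the core, respectively. Psma4 gave 133, 140, 156, 169 and 149 array medians in saline replicates 2 to 6 and 154 to 229 in heroin rats, with a median of 175. Only heroin replicate 6 stood well above the rest. On the log2 scale the change was 0.26 (standard error 0.13), and 0.02 under quantile normalization. Psma5 was measured at 118 to 137 array medians in saline rats and 124 to 153 in heroin rats, overlapping, with a log2 change of 0.16, the lowest of the alpha rings, against -0.08 under quantile normalization. The other 5 alpha genes changed by 0.19 to 0.25, and under quantile normalization by -0.06 to 0.02. Psma3 and Psma3l are near-identical copies whose probes may bind each other's transcripts, so their values, 0.22 and 0.24, are uncertain as gene-specific ones.

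None of the constitutive catalytic subunits passed the thresholds. Psmb5, the chymotrypsin-like subunit, gave 104, 95.6, 91.1, 119 and 96.3 array medians in saline replicates 2 to 6, and from 94.8 to 130 with a median of 112 in heroin rats. All heroin rats but replicate 5 were above the lower 3 of the saline rats, and the groups overlapped. This gave a log2 change of 0.16 (standard error 0.13, exact p = 0.139), and -0.09 under quantile normalization. Psmb6, the caspase-like subunit, went from 40.6 ± 6.80 (SD, n = 5) to 48.5 ± 3.92 array medians (SD, n = 6), a log2 change of 0.27 (exact p = 0.0390), which was the largest of the beta rings. After quantile normalization the change of Psmb6 was 0.01 (exact p = 0.892). Psmb7, the trypsin-like subunit, went from 32.5 ± 5.15 (SD, n = 5) to 36.8 ± 6.13 array medians (SD, n = 6), a log2 change of 0.18 (exact p = 0.264), and -0.07 under quantile normalization. The noncatalytic subunits Psmb1, Psmb2, Psmb3 and Psmb4 changed by 0.18 to 0.23, and under quantile normalization by -0.07 to -0.03.

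By the class median, the immunoproteasome subunits varied more between rats of a group than the other classes did, and 2 of the 3 had the lowest changes of the core. Their median residual standard deviation was 0.415 on the log2 scale, against 0.170 to 0.275 in the other classes of subunits, activators and chaperones. Single genes were 0.415 (Psmb8), 0.442 (Psmb9) and 0.291 (Psmb10), and Psmd6 of the lid was higher, at 0.464. Psmb8 and Psmb9 were also among the dimmer members. Psmb8, the interferon-inducible counterpart of Psmb5, gave 3.75, 3.15, 4.70, 4.85 and 4.37 array medians in saline replicates 2 to 6. In heroin rats it ran from 2.32, in replicate 5, to 6.42, in replicate 3, with a median of 4.63. The heroin rats thus included both the lowest and the highest of all 11 values. Its log2 change was 0.03 (standard error 0.22, exact p = 0.898), and -0.19 under quantile normalization (exact p = 0.431).

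Psmb9, the counterpart of Psmb6, behaved in the same rats in much the same way. Saline replicates 2 to 6 gave 6.69, 6.43, 8.90, 9.59 and 9.70 array medians, and heroin rats from 4.51, in replicate 5, to 11.2, in replicate 3, with the middle rats at 9.10 and 9.30. Heroin replicate 1 was again the next lowest of its group, at 5.69. The log2 change was -0.03 (standard error 0.23, exact p = 0.913), the only member change below 0 with the main scaling, and -0.26 after quantile normalization (exact p = 0.312). Leaving out each rat in turn gave -0.12 to 0.14 for Psmb9 and -0.09 to 0.20 for Psmb8, so both directions occurred.

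Psmb10, the counterpart of Psmb7, went from 62.1 ± 9.33 (SD, n = 5) to 73.7 ± 18.7 array medians (SD, n = 6), with heroin replicate 6 at 108 and the other heroin rats between 52.6 and 73.8. Its log2 change was 0.23 (exact p = 0.251), and -0.04 under quantile normalization. Over the 3 genes, saline rats had a mean log2 signal of 3.67 ± 0.23 (SD, n = 5) and heroin rats one of 3.75 ± 0.42 (SD, n = 6), with 3.03 in heroin replicate 5, 3.46 in heroin replicate 1 and 3.86 to 4.07 in the other heroin rats. The constitutive core genes of heroin replicates 1 and 5 did not stand apart in this way, with means of 6.17 and 6.11 against 6.12 to 6.32 in the other heroin rats.

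**Figure D3:**
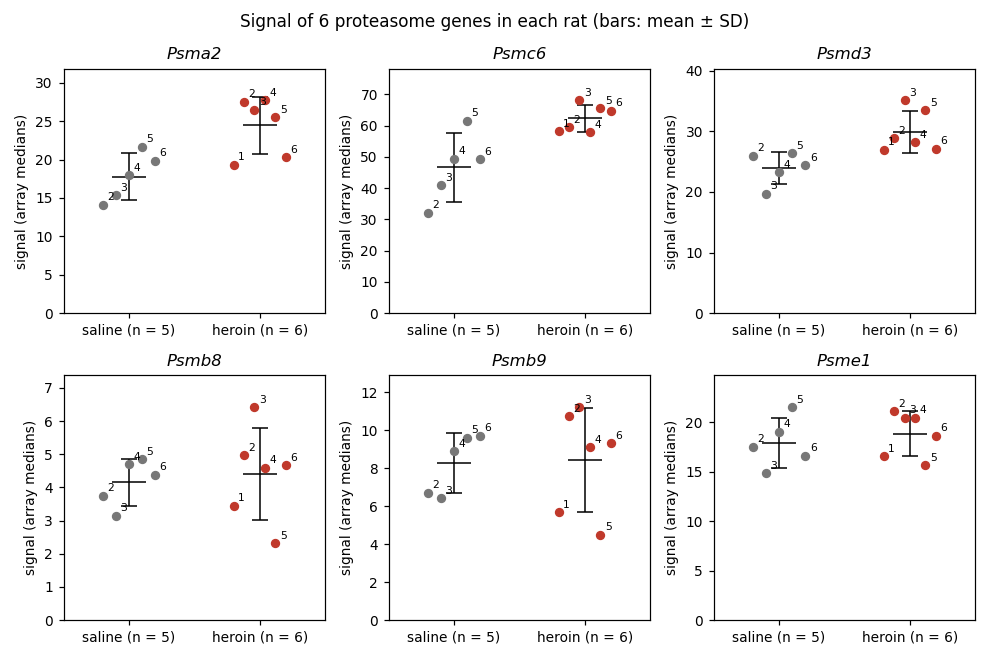
Signal of Psma2, Psmc6, Psmd3, Psmb8, Psmb9 and Psme1 in each rat, in multiples of the array median (vertical axes from 0), for 5 saline (grey) and 6 heroin rats (red), numbered by replicate, with the mean and SD of each group. Heroin rats lie mostly above saline rats for Psma2 and Psmc6 and entirely above for Psmd3, while for Psmb8 and Psmb9 the heroin rats reach from the lowest to the highest value.

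Microglia are known to express immunoproteasome genes. Of 4 microglial markers 3 were tested, with a summed level from 34.0 to 90.5 array medians in heroin rats and from 37.7 to 56.1 in saline rats. That sum was mostly Aif1, with a mean of 46.8 in heroin rats, against 8.34 for Csf1r and 1.93 for Cx3cr1. The lowest sum was that of heroin replicate 5, and heroin replicate 1 gave 48.3. Itgam, the marker not tested, was detected on 10 of the 11 arrays. Of the 3 microglial genes tested, 0 reached an unadjusted limma p under 0.05, where 18.5% of all probes did. Their median log2 change was 0.24, against 0.01 under quantile normalization. The endothelial markers Cldn5 and Kdr ran from 73.1 to 135 in sum in heroin rats and from 58.7 to 99.7 in saline rats, and the 4 oligodendrocyte markers tested from 75.9 to 269 and from 82.7 to 256. Their part in the values of Psmb8, Psmb9 and Psmb10 was not tested.

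The antigen-processing genes that share interferon control with the immunoproteasome, a list of 7 of which 5 were tested, did not pass the test either. Of these 5 (Tap1, Tap2, Tapbp, B2m and Irf1), 0 reached an unadjusted limma p under 0.05 in either direction, where 18.5% of all probes did. Their median log2 change was 0.12, against -0.08 under quantile normalization. Tap2, a subunit of the peptide transporter beside which Psmb8 and Psmb9 are encoded, changed by 0.15 and Tapbp, which bridges the transporter and class I molecules, by -0.00061. B2m, the light chain of those molecules, changed by 0.12, and its brightest probe had a usable spot on 9 of the 11 arrays. The summed level of Tap1, Tap2, Tapbp and Irf1, the 4 with a usable spot on every array, was lowest in heroin replicate 5 (9.38 array medians) and highest in heroin replicate 3 (20.9), as for Psmb8 and Psmb9, and ran from 10.2 to 16.8 in saline rats. In heroin replicate 1 it was 12.6.

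Among the ATPases, which form the ring that unfolds the substrate, Psmc6 had the largest change. Its brighter probe gave 32.2, 40.9, 49.3, 61.6 and 49.2 array medians in saline replicates 2 to 6, and from 57.9 to 68.0 with a median of 62.1 in heroin rats. All heroin rats lay above 4 of the 5 saline rats, and saline replicate 5 lay among the heroin rats. Its log2 change was 0.45 (standard error 0.15), a 1.36-fold change below 1.4-fold (two-sided exact permutation p = 0.00866, limma adjusted p = 0.263). After quantile normalization it was 0.18 (exact p = 0.128). The dimmer probe gave a like change, of 0.39 (standard error 0.15), and 0.13 under quantile normalization. With the scan as a block the changes were 0.47 and 0.39 (standard error 0.18 for each), still below 1.4-fold. Leaving out saline replicate 5, the highest saline rat, put both probes past both thresholds, with a log2 change of the brighter one of 0.56, but without that rat 9.21% of all probes were past them. Of the 6 neuronal markers, 1 (Gad1) reached an unadjusted limma p under 0.05, where 18.5% of all probes did. The median log2 change of the 6 was 0.32, or 0.11 after quantile normalization. The summed level of the 5 with a usable spot on every array ran from 209 to 335 array medians in saline rats and from 231 to 412 in heroin rats. That sum was mostly Snap25, with a mean of 281 in heroin rats, against 34.1 for Camk2a, the next highest of them. The part of these levels in the values of Psma2 and Psmc6 was not tested.

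Psmc5 had the lowest change of the ATPases, from 502 ± 67.2 (SD, n = 5) to 576 ± 83.2 array medians (SD, n = 6), with a log2 change of 0.20 (exact p = 0.152), and -0.05 under quantile normalization. Psmc1, Psmc2, Psmc3 and Psmc4 lay between, at 0.21 to 0.28, or -0.05 to 0.03 after quantile normalization. The fit of Psmc2 used 10 of the 11 arrays.

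The other base subunits hold the ATPase ring to the lid and bind ubiquitin. Psmd4, a receptor for ubiquitin chains, went from 91.4 ± 8.12 (SD, n = 5) to 105 ± 15.7 array medians (SD, n = 6), a log2 change of 0.20 (exact p = 0.0887), and -0.05 under quantile normalization. Psmd1, a scaffold of the base, gave 251, 246, 259, 286 and 249 array medians in saline replicates 2 to 6 and from 289 to 345 with a median of 299 in heroin rats. The groups did not overlap, the closest rats being heroin replicate 4 and saline replicate 5. On the log2 scale the change was 0.24 (standard error 0.11, exact p = 0.00216, the smallest these numbers of rats allow). After quantile normalization, however, it was -0.0035 (exact p = 0.955). With the scan as a block the change was 0.26, with a wider standard error of 0.16. The exact test took no account of the shared scans. Psmd2, the other scaffold, had changes of 0.28 at its brighter probe, which was fitted on 7 of the 11 arrays since marked spots were left out, and 0.35 at its dimmer one, or 0.06 and 0.09 after quantile normalization.

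Groups did not overlap for 2 of the 50 probes, those of Psmd1 and Psmd3, against 1.8% of all probes tested. Psmd1 is named for that count, after its values were seen, and its dimmer probe, with a log2 change of 0.26 (exact p = 0.130), had overlapping groups. Psmd3, a scaffold of the lid, gave 25.9, 19.7, 23.3, 26.4 and 24.4 array medians in saline replicates 2 to 6 and from 27.0 to 35.1 with a median of 28.5 in heroin rats. The gap was small, with heroin replicates 1 and 6 just above saline replicate 5. This gave a log2 change of 0.32 (standard error 0.13, exact p = 0.00216, limma adjusted p = 0.263), the largest of the lid. Under quantile normalization it was 0.07 (exact p = 0.587). With the scan as a block the change was 0.35, with a wider standard error of 0.17.

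The other lid subunits changed by 0.19 to 0.30, and under quantile normalization by -0.06 to 0.04. Psmd6 varied most, from 12.2 to 32.4 array medians in saline rats and from 16.0 to 31.2 in heroin rats, so its log2 change of 0.30 had a standard error of 0.24 (exact p = 0.316). Psmd12 had the smallest change of the lid, from 57.0 ± 5.72 (SD, n = 5) to 65.2 ± 6.84 array medians (SD, n = 6), at 0.19 (exact p = 0.0649), and -0.06 under quantile normalization. The 3 assembly chaperones changed by 0.30 (Psmd5), 0.21 (Psmd9) and 0.17 (Psmd10), and under quantile normalization by 0.06, -0.04 and -0.08. Psmc3ip, the gene that is not a subunit, changed by 0.13, against -0.08 under quantile normalization.

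Of the activators, Psme1 and Psme2 had the lower changes and Psme3 and Psme4 the higher. Psme1 and Psme2 form the interferon-inducible cap PA28. Psme1 gave 17.6, 14.9, 19.1, 21.5 and 16.7 array medians in saline replicates 2 to 6 and from 15.7 to 21.1 with a median of 19.6 in heroin rats. The heroin values lay within the saline range. Its log2 change was 0.07 (standard error 0.13, exact p = 0.528), and -0.18 under quantile normalization, the smallest p of any member under that scaling (exact p = 0.0693). Psme2 went from 25.7 ± 3.98 (SD, n = 5) to 27.9 ± 4.18 array medians (SD, n = 6), at 0.11 (exact p = 0.400), and -0.14 under quantile normalization.

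Psme3, the nuclear relative of PA28, changed by 0.37 and Psme4, the large activator PA200, by 0.31 at its brighter probe, and under quantile normalization by 0.10 and 0.07. Heroin replicate 6, with a Psme3 signal of 174 array medians, stood far above the other heroin rats, which lay between 89.5 and 108. For Psme4 the probes disagreed, with 0.05 at the dimmer one, against -0.02 under quantile normalization. In the other 6 genes with several probes (Psma6, Psmc4, Psmc6, Psmd1, Psmd2 and Psmd7) the probes of a gene differed by at most 0.07 in log2 change. Of the 5 interferon-inducible members, Psmb8, Psmb9, Psme1 and Psme2 lay below the all-probe median with the main scaling, with relative changes of -0.15, -0.21, -0.11 and -0.07, and Psmb10 above it with 0.04, where its log2 change under quantile normalization was -0.04. None of the 5 reached an unadjusted limma p under 0.05 under either scaling. Of all probes 18.5% did with the main scaling and 7.7% after quantile normalization, so with so few genes this count says little about them.

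The wider ubiquitin pathway was read from a list of 28 genes, 17 of which were tested. Of these 17, 8 had an unadjusted limma p under 0.05, all higher in heroin rats, where 15.7% of all probes were. Both thresholds were passed by 0 of 17, against 2.72% of all probes. After quantile normalization 0 of 17 had a p under 0.05, against 7.7% of all probes. Their median log2 change was 0.30, against 0.05 under quantile normalization. The ubiquitin genes Ubb and Rps27a changed by -0.02 and 0.33, neither at a p under 0.05, and the fit of Ubb used 10 of the 11 arrays. The deubiquitinases bound to the regulatory particle changed by 0.39 (Usp14) and 0.39 (Uchl5), both under 0.05, and after quantile normalization by 0.13 and 0.13. The shuttle proteins Rad23b and Ubqln1, which bring substrates to the proteasome, changed by 0.36 and 0.39, and under quantile normalization by 0.10 and 0.14. The other receptors and shuttles tested, Ubqln2, Adrm1 and Sqstm1, had log2 changes of 0.02, 0.02 and 0.07, and under quantile normalization of -0.15, -0.12 and -0.19. Nfe2l1, the transcription factor that induces proteasome genes, changed by 0.32, or by 0.06, and Ube3a, a ubiquitin ligase, by 0.30, or by 0.04. The largest of the 17 was Ube1c, of the NEDD8-activating enzyme, at 0.42, against 0.19 under quantile normalization.

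The promoters of the members were read because several of them are known targets of interferon. RefSeq's promoter table for build GRCr8 (250 bases before to 50 after the start) held 38 of the 42 genes. The interferon-stimulated response element, searched on both strands as GAAA, any 2 bases and GAAA, was found in 6 of these 38 promoters and in 3.92% of all 33469 promoters of that length. The 6 were Psmb8, Psmb10, Psme2, Psma4, Psmb3 and Psmd7. For each interferon-inducible gene among them a window of 30 bases is shown (for Psmb10, which has 2 matches, the one nearer to the start), in the direction of transcription, with the matched letters in capitals.
Psmb8 (chr20:4657016-4657045, gene on the minus strand, match on the opposite strand): gtgctgtggcTTTCGCTTTCacttccttgt
Psmb10 (chr19:50743290-50743319, gene on the minus strand): agtggggggtGAAAGCGAAAgtaggaagcg
Psme2 (chr15:33052785-33052814, gene on the minus strand): cctggagagtGAAAGCGAAAgctggggctg

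The log2 changes of these 3 genes after quantile normalization were -0.19, -0.04 and -0.14. Psma4, Psmb3 and Psmd7, whose promoters also held the letters, changed by 0.02, -0.04 and -0.05. Psmb9 and Psme1 have no match in the window read, which says only that these letters are not there. The gamma-activated site, searched as TTCNNNGAA, was found in 4 of 38 promoters (Psmb8, Psmc6, Psmd3 and Psmd7) and in 8.87% of all, and the core of the antioxidant response element, TGACNNNGC, in 8 of 38 and in 12.1% of all. No match of one motif overlapped a match of another, and a match is a description of letters and not a measured binding site.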

How the data were processed

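Total RNA was amplified into labelled cRNA, which was hybridised to single-colour Agilent arrays, 1 per rat. The authors deposited for each spot the signal intensity that the scanner software Feature Extraction (9.5.1.1 in the file headers) gave, with background subtracted and arrays not scaled to each other. A second deposited table holds a ratio per probe and rat, made after the same scaling, and served as an alternative. Once each probe was centred, its log2 values differed from those used here by a median of 0.00247.

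From the intensities, control spots were removed, values under 5 were raised to 5, arrays were scaled by the 50th percentile of their non-control probes and log2 values were formed. The percentile was taken over probe means of unmarked spots. Spots with a non-uniformity or outlier mark were then removed, and the log2 values of a probe's remaining spots were averaged. In quantile normalization the marked spots were removed after the arrays had been normalized. The floor and the scaling follow the study's methods, whose further division per gene, by its median and by the control group, was not applied. A probe counted as detected where at least 0.5 of its spots were well above background, and probes detected on all 11 arrays with usable spots on 2 or more arrays per group were tested (25555 of 41012). Groups, from the sample titles, were compared with limma (3.58.1, R 4.3.3, lmFit and eBayes, two-sided, Benjamini-Hochberg adjustment over all tested probes), fitted on the whole table and then read for the members. Standard errors are limma's. For single genes an exact permutation p was taken over the 462 divisions of the rats into groups of 6 and 5. The number of arrays limits the precision, and no counts underlie these values.

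A gene's probe was its brightest detected one. Genes given in full were the catalytic subunits and their inducible counterparts, Psmd4, Psme1, Psme2, Psme4, any gene past both thresholds, and the 3 largest and 3 lowest changes of the core and of the regulatory particle. The members, lists and motifs were chosen with earlier results of these data known. Some genes of the pathway lists are not reported here. Alternatives were other scalings (75th percentile, quantile, 50th percentile of detected probes), normexp (offset 50), the order of floor and scaling, the authors' ratios, marked spots kept, other detection filters, the methods' t-test, trend and robust eBayes, array weights, the replicate number or scan as a block, averaged probes, other class boundaries and each rat left out. Counts at a p under 0.05 and the within-scan fit of single genes were added after the data were seen. Probe positions are those of build rn3 in the files, promoters are RefSeq's for GRCr8, and exons were not analysed here.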

Additional observations from a re-analysis of the deposited data

Results flagged for a closer look

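For the 18 genes given in full, and for the mean log2 signal of the core, of the regulatory genes and of their difference, 42 groups of rats (heroin or saline) were checked. In 3 of them 1 rat stood apart from the rest by more than Dixon's 95% limit, which chance alone does in about 1 in 20 groups. Psmb7 had a log2 signal of 4.69 in heroin replicate 6, against 5.16 in the nearest heroin rat (gap 0.633 of the group's range). Psmd12 had a log2 signal of 6.07 in saline replicate 5, against 5.80 in the nearest saline rat (gap 0.793 of the range). The mean log2 signal of the regulatory genes was 6.07 in heroin replicate 3, against 5.93 in the nearest heroin rat (gap 0.688 of the range).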

How the results depend on the processing

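Of the alternative values of the main results, 95 stayed within the spread between rats or within 1.5 times the count, and 7 moved, all of them counts of probes past both thresholds. That count was 0 of 50 in the main setting, against 2.72% of all probes. It was 1 with array weights (Psmd6), where 9.31% of all probes passed. Psma2 was the 1 probe past both with the replicate block and with the scan as a block, where 3.13% and 3.15% of all probes passed. With 1 rat left out the count was from 0 to 3. It was 1 (Psma2) without heroin replicate 1, heroin replicate 6 or saline replicate 6, where 2.47%, 3.13% and 2.07% of all probes passed. It was 3 without saline replicate 5 (Psma2 and both Psmc6 probes), where 2356 of all probes passed, against 694 in the main setting. Relative to the median of all probes, the change of the core was 0.00 to 0.06, that of the regulatory genes 0.05 to 0.11 and the difference -0.06 to -0.01 with 1 rat left out. The core was at 0.04 in the main setting, -0.05 after quantile normalization and 0.13 without a detection filter. The spread allowed was 0.148 for the core, 0.129 for the regulatory genes and 0.0845 for the difference. Each exceeded the size of the main value, so staying within it says little about stability. The number of members at an unadjusted p under 0.05 was 11 of 50 in the main setting, against 18.5% of all probes. It was 0 with the 75th percentile, quantile normalization or the 50th percentile of detected probes, against 9.55%, 7.7% and 9.08% of all probes. With the scan or the replicate block it was 2, against 10.6% of all probes. With the scan block these were Psma2 and the brighter probe of Psmc6, so Psmd1 and Psmd3 were no longer among them. It was 39 with array weights, where 32 had an adjusted p under 0.05 (smallest 0.0202). Of all probes, 47.6% and 30.8% were at these levels with array weights, and 2378 passed both thresholds. Same-numbered heroin and saline arrays shared a scan, but their deviations from the group means correlated at 0.38, -0.13, 0.35, 0.02 and -0.24, so the replicate numbers were not taken as pairs. With the deposited ratios 2 of the genes given in full, Psma4 and Psmb10, were not among the rows used. Scaling before the floor gave the same values. On the log2 scale 1.4-fold is 0.485, and the residual standard deviation between rats of a group was a median of 0.177 over the members. Changes of about that standard deviation or smaller lie within the spread between these rats. The cause of the shift between scalings was not tested.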
